A study of Mus musculus with 2 samples.

Results

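The amyloid precursor family and the secretases that cut it were described in mouse cerebral cortex through 9 of 55536 annotated genes, chosen by symbol as a protein family and its cutting enzymes. The 3 precursor genes are App, Aplp1 and Aplp2. Bace1 encodes the beta-secretase, and Psen2, Ncstn, Aph1a, Aph1b and Psenen encode subunits of gamma-secretase. Not every gamma-secretase subunit gene is analysed here. Aph1c, a near copy of Aph1b, is given beside it. On mm10, App lies at chr16:84949685-85173766, Aplp2 at chr9:31149557-31211815 and Aplp1 at chr7:30434982-30445535, on the same chromosome as Psenen (chr7:30561863-30563627). Bace1 lies at chr9:45838580-45864399, Psen2 at chr1:180227004-180263438, Ncstn at chr1:172066013-172082795, Aph1a at chr3:95893969-95898288 and Aph1b at chr9:66775202-66795490.

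The tissue was left cerebral cortex of 2 adult male mice of the strain B6CASTF1/J (the F1 hybrid of B6 and Cast), aged 8 to 10 months. Its total RNA was sequenced after ribosomal RNA was reduced and ERCC spike-ins were added, with 300 ng of RNA in each library. The labels give no treatment or mutation and place both libraries in 1 group, so no condition was compared and no test was run. Both carry the same donor label, and that they are separate animals rests on the animal numbers 2 and 4. The libraries are called replicate 1 and replicate 2, and ± marks the SD over these 2 animals (n = 2) throughout.

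The amyloid precursor protein crosses the membrane a single time and is cut in steps. In the pathway that yields the amyloid-beta peptide, beta-secretase cuts first, outside the membrane, and gamma-secretase then cuts the remaining stub inside the membrane. An alternative first cut by an alpha-secretase falls inside the amyloid-beta stretch and prevents the peptide from forming. Gamma-secretase is a complex in which a presenilin carries the active site, nicastrin (Ncstn) forms the large outer domain, an Aph1 protein serves as scaffold, and Pen-2 (Psenen) completes and activates the enzyme. App and Aplp2 can include an exon for a Kunitz domain, a fold that inhibits serine proteases, and the App form without that domain is known as the form typical of neurons.

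The results on transcript forms turn on the Kunitz exons of App and Aplp2, which are printed 5′ to 3′ on the coding strand from the GENCODE M21 transcripts. Capitals mark the bases that are identical between both exons. The App exon is exon 7 of 17 in transcript App-202, at chr16:85043576-85043743 on the minus strand of mm10, and the Aplp2 exon is exon 7 of 17 in Aplp2-201, at chr9:31167561-31167728, also on the minus strand. Both are coding exons.
App Kunitz exon: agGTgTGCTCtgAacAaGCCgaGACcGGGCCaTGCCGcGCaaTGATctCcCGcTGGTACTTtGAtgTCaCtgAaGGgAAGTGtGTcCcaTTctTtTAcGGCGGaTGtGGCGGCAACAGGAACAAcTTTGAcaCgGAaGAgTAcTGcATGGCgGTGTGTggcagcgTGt
Aplp2 Kunitz exon: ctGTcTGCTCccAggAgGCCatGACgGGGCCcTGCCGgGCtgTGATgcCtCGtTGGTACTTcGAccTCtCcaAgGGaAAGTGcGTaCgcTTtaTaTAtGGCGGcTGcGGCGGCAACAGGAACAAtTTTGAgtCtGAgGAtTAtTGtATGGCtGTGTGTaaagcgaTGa
Each exon holds 168 bases, a whole number of codons for 56 residues. Aligned without gaps they matched at 114 of 168 positions (67.9%), and the longest identical run was 17 bases. Of the 3090 stretches of 31 bases in App-202, 0 also occurred in Aplp2-201.

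3 further stretches place the results. The App 57-base exon follows the Kunitz exon in part of the App transcripts (exon 8 of 18 in App-206, chr16:85040251-85040307, minus strand). The Aplp2 36-base exon (exon 13 of 17 in Aplp2-202, chr9:31156190-31156225, minus strand) lies nearer the 3′ end. The amyloid-beta stretch of App is shown because it defines the product of the pathway, with the codons of its first 5 residues, by which it was located, in capitals.
App 57-base exon: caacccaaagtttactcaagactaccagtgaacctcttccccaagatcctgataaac
Aplp2 36-base exon: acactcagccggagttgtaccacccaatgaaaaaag
App amyloid-beta stretch: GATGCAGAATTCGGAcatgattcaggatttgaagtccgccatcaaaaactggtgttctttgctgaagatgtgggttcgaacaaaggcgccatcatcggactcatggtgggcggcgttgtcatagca
The amyloid-beta stretch codes for 42 residues from residue 597 of the App-201 product. It is split between exon 14 of 16 (chr16:84965670-84965720, 51 bases) and exon 15 (chr16:84962794-84962868, 75 bases), outside the Kunitz, 57-base and 54-base exons. The longest run of its 126 bases found anywhere in Aplp1-201 was 8 bases, and in Aplp2-202 9 bases. Transcripts that hold the whole stretch, 6 of the 11 annotated for App, took 99.0% and 98.2% of App TPM in replicates 1 and 2, and 98.6% and 97.95% in the second of the 2 quantifications that the authors deposited.

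**Figure D1:**
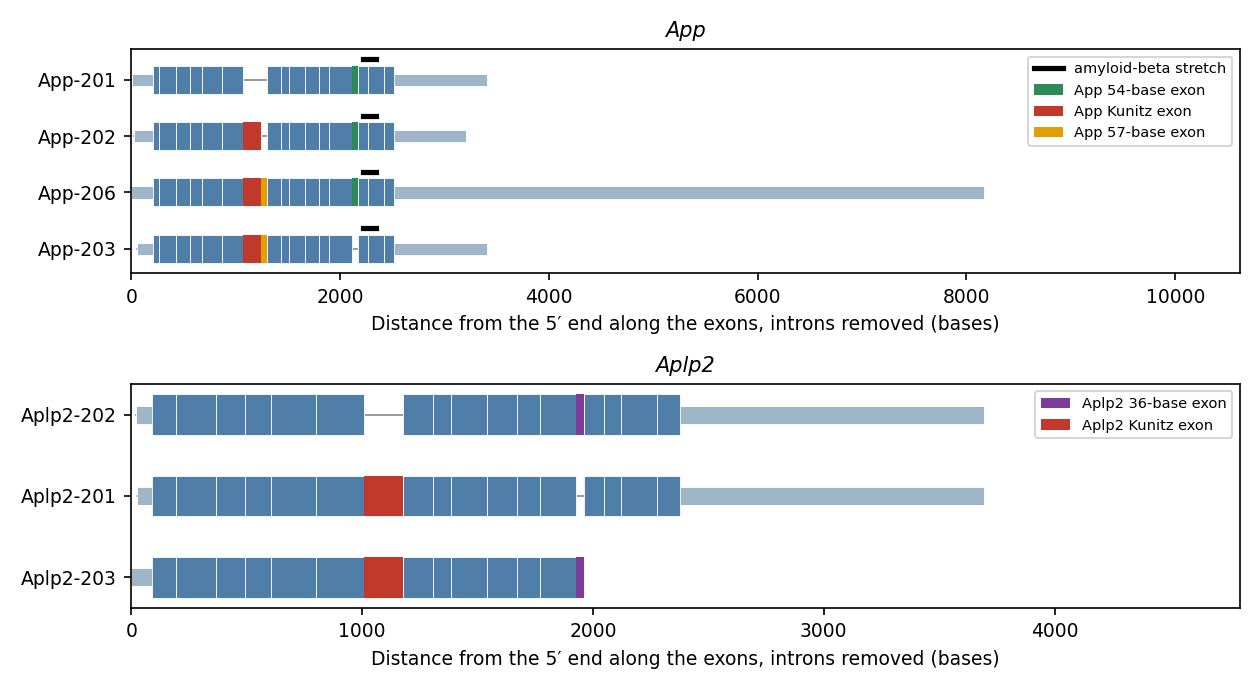
Exon maps of the main App and Aplp2 transcripts in GENCODE M21, with introns removed. The horizontal axis is the distance in bases from the 5′ end along the joined exons, tall boxes are coding, thin boxes are not, colours mark the exons that vary and the black bar marks the amyloid-beta stretch. App-201 lacks the Kunitz exon, and Aplp2-203 ends at the 36-base exon.

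Levels are given as TPM, an abundance scaled to a fixed total per library, which corrects for length and so can be compared between genes within a library. App stood at 620 and 637 TPM in replicates 1 and 2 (629 ± 11.96). It rested on 34404 and 38355 expected counts and ranked 47th of 22028 protein-coding genes, which puts the precursor among the most abundant messages of this tissue. In bulk tissue fewer cells of a type and less RNA per cell cannot be told apart, which holds for all levels below. The genes nearest to App by level were Rpl41, a ribosomal protein gene (642 ± 34.1 TPM), and Pkm, the pyruvate kinase gene of glycolysis (635 ± 5.92), just above it. Just below came Nrgn, which encodes the postsynaptic calmodulin-binding protein neurogranin (628 ± 34.6), and Cfl1, which encodes the actin-severing protein cofilin (622 ± 49.5). The ranges of these 4 genes over the 2 animals all overlapped that of App.

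Aplp1, the family member that lacks a Kunitz exon and is known for its expression in neurons, stood close below App. Its levels were 562 and 587 TPM (574 ± 17.7), and it ranked 55th among protein-coding genes. App was 1.10-fold and 1.09-fold higher than Aplp1 within the libraries, so it was higher in both, and the ranges of the 2 genes did not overlap. Aplp2, which is expressed in many tissues, was lower, at 232 and 244 TPM (238 ± 8.69). Within the libraries App was 2.64-fold ± 0.0463 and Aplp1 2.41-fold ± 0.0139 above Aplp2. Together the 3 precursor genes took 0.287% and 0.290% of the TPM of protein-coding genes. App made up 43.6% ± 0.331 of the family's TPM, Aplp1 39.8% ± 0.167 and Aplp2 16.5% ± 0.164.

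The secretase genes were far below their substrate. Bace1 stood at 36.7 and 37.6 TPM (37.2 ± 0.629), so there was 16.9-fold ± 0.0354 as much App as Bace1 transcript, per length. Psenen was the highest secretase gene per length, at 45.3 and 46.7 TPM (46.0 ± 0.990), and was 1.23-fold and 1.24-fold above Bace1. Without length the order turned, with 453 and 502 expected counts for Psenen against 2871 and 3077 for Bace1.

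The other gamma-secretase genes fell into a higher and a lower pair. Aph1a, the scaffold gene, stood at 24.6 and 30.04 TPM (27.3 ± 3.83), and Ncstn, the nicastrin gene, at 25.6 and 28.7 TPM (27.1 ± 2.16). Their ranges overlapped and their order changed between the animals, so Aph1a and Ncstn were not separated. Aph1b, the other scaffold gene, stood at 10.6 and 8.78 TPM (9.71 ± 1.32), and Psen2, a presenilin gene, at 8.90 and 8.95 TPM (8.93 ± 0.0354). These ranges overlapped as well, so Aph1b and Psen2 were not separated either by the TPM of the whole gene. That total includes forms without a coding label, which took 42.6% and 47.7% of Psen2 but 1.52% and 10.8% of Aph1b. Coding forms alone were not compared between these genes. Between the pairs the gap was clear of the spread: Ncstn was 2.41-fold and 3.26-fold above Aph1b, and 2.88-fold and 3.20-fold above Psen2. Psenen was 5.15-fold ± 0.0905 above Psen2 per length, and 1.84-fold by expected counts without length. Summed over the 5 gamma-secretase genes, TPM came to 115 and 123.

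The pair of Aph1 scaffold genes differed in level, and a near copy and a short form make the lower one uncertain. Aph1a was 2.31-fold and 3.42-fold above Aph1b per length, and 1.35-fold and 1.74-fold by expected counts without length. The second quantification gave 2.99-fold and 3.99-fold per length. The short form Aph1b-202 held 3.66 and 2.37 TPM of Aph1b from only 37.5 and 26.4 counts. Aph1c, at chr9:66814994-66834726 beside Aph1b, stood at 2.98 and 3.20 TPM (3.09 ± 0.156). Of the 4880 stretches of 31 bases in Aph1b-201, 1281 (26.3%) also occurred in Aph1c-202, so reads there could be split between the copies. The ratio of Aph1b to Aph1c was 3.57 and 2.74 in the first quantification and 2.85 and 1.56 in the second. No stretch of this length was shared between Aph1a-202 and Aph1b-201.

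The second quantification set every member except Psen2, Aph1b, Aph1a and Ncstn in the same place of the order. Its TPM values were 1.46-fold higher in replicate 2 than in replicate 1 at the median of 14169 genes, so its levels are compared only within a library here. It gave App 542 and 777 TPM, Aplp1 454 and 677 TPM and Aplp2 246 and 376 TPM. App was 1.19-fold and 1.15-fold above Aplp1 and 2.21-fold and 2.06-fold above Aplp2, so Aplp2 stood nearer to App than in the first quantification. App was 16.2-fold and 15.6-fold above Bace1.

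**Figure D2:**
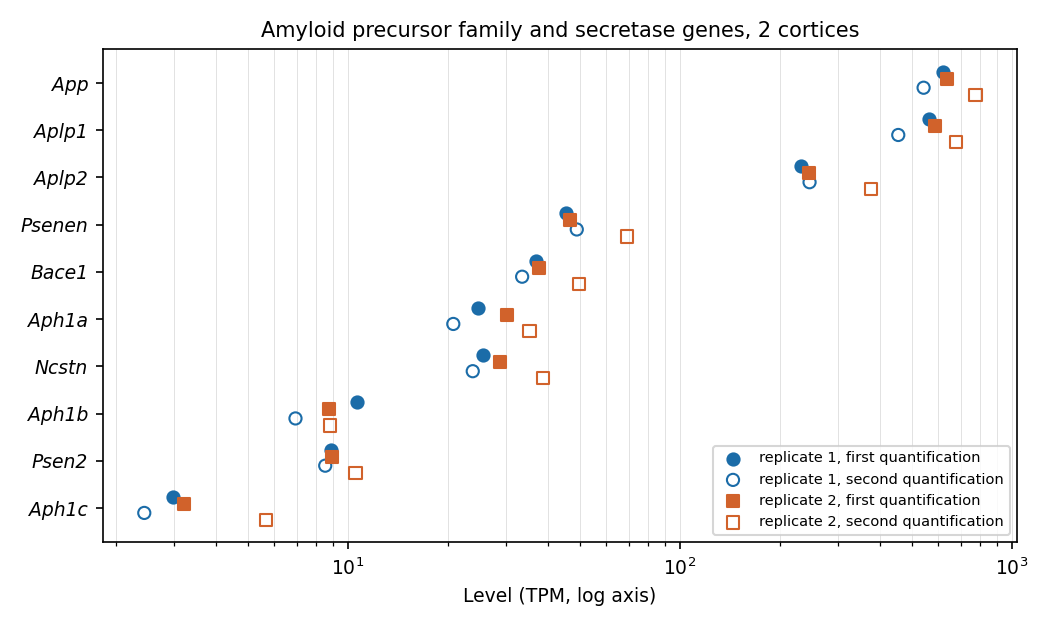
Level of each gene in TPM (log axis) for each animal; filled symbols show the first quantification and open symbols the second, circles replicate 1 and squares replicate 2. The 3 precursor genes lie above all secretase genes, and the second quantification lies higher in replicate 2 for every gene shown.

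App was present mainly as 1 transcript form. App-201, which codes for 695 residues and lacks the Kunitz exon, took 90.3% and 90.5% of the gene's TPM (90.4% ± 0.106), and 88.7% and 89.3% in the second quantification. The leading transcript of a gene took 62.9% in the first and 56.6% in the second quantification at the median of 11976 genes with at least 2 transcripts and a mean of at least 50 counts. App-202, of 751 residues and with the Kunitz exon, took 4.78% and 4.06%, and the second quantification put it at 5.48% and 4.21%. App-206, of 770 residues and with both the Kunitz and the 57-base exon, took 1.96% and 1.92%. App-203, of 752 residues, holds both of these exons but skips a 54-base exon just before the amyloid-beta stretch (chr16:84971408-84971461), and it took 1.74% and 1.66%.

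Read by exon, the Kunitz exon of App was included in 8.58% and 8.05% of the TPM of transcripts that span it (8.31% ± 0.377), and in 10.2% and 9.18% by the second quantification. These shares rested on 3908 and 4113 expected counts of transcripts with the exon against 30328 and 33956 without it. Among App transcripts with the Kunitz exon before and the shared exon after it, the 57-base exon was included in 43.6% and 48.7% (46.1% ± 3.60), and in 45.5% and 53.4% by the second quantification. The 54-base exon, absent from App-203, was included in 98.2% and 98.3%. Forms without the Kunitz exon were thus the large majority of App in both animals and by both quantifications.

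Aplp2 was spread over several forms instead. Aplp2-202, of 707 residues, without the Kunitz exon and with the 36-base exon, took 34.4% and 34.1% of the gene. Aplp2-201, of 751 residues, with the Kunitz exon and without the 36-base exon, took 24.7% and 20.9%. Aplp2-203 holds both exons, but its annotated model is incomplete and stops at the 36-base exon; it took 17.0% and 21.4%. Aplp2-207, a retained-intron form over the last exons of the gene with no coding sequence, took 15.6% and 16.1%. Aplp2-208, also a retained-intron form, took 4.01% and 2.97%. The second quantification reordered these forms: Aplp2-203 led with 32.9% and 38.2%, Aplp2-207 had 25.0% and 29.0%, Aplp2-202 21.7% and 17.7%, Aplp2-201 8.56% and 4.81%, and Aplp2-208 8.02% and 5.75%.

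The Kunitz exon was included in 54.8% and 55.3% of the TPM of Aplp2 transcripts that span it (55.1% ± 0.340), against 8.31% ± 0.377 for App. The ranges of both genes were far apart in both quantifications, since the second gave 65.6% and 70.8% for Aplp2. The Aplp2 value depends on the incomplete model Aplp2-203. Over transcripts with complete ends only, an alternative chosen after seeing the data, it was 41.9% and 38.0% in the first quantification and 28.2% and 21.3% in the second, which were still above every App value given here. In absolute level, transcripts with the Kunitz exon came to 96.7 and 103 TPM for Aplp2 and 52.6 and 50.5 TPM for App. Counted with Aplp2-203, Aplp2 held 1.84-fold and 2.04-fold as much transcript with this exon as App, and 1.87-fold and 2.31-fold by the second quantification. Without Aplp2-203, an alternative chosen after seeing the data, the ratio was 1.09 and 1.01 in the first quantification, where the ranges of both genes overlapped. In the second it turned to 0.386 and 0.258, with 21.02 and 18.1 TPM for Aplp2 against 54.5 and 70.1 TPM for App. Which gene held more transcript with the Kunitz exon therefore depended on the incomplete model and was not settled here.

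The 36-base exon of Aplp2 was included in 58.1% and 62.0% of the TPM of transcripts with both neighbouring exons (60.1% ± 2.76), and in 71.8% and 78.7% by the second quantification. Counting Aplp2-203, which ends at this exon, raised the share to 70.1% in the first quantification and 89.3% in the second, an alternative chosen after seeing the data. The annotation holds no Aplp2 transcript with complete ends that has both the Kunitz and the 36-base exon, so the share of messages with both was not measured here apart from Aplp2-203.

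Aplp1 was the simplest of the family. Aplp1-201, which codes for 654 residues, took 94.9% and 96.4% of the gene and 99.2% and 99.0% by the second quantification. The other 4 annotated transcripts have no protein-coding label and took 5.12% and 3.63%.

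**Figure D3:**
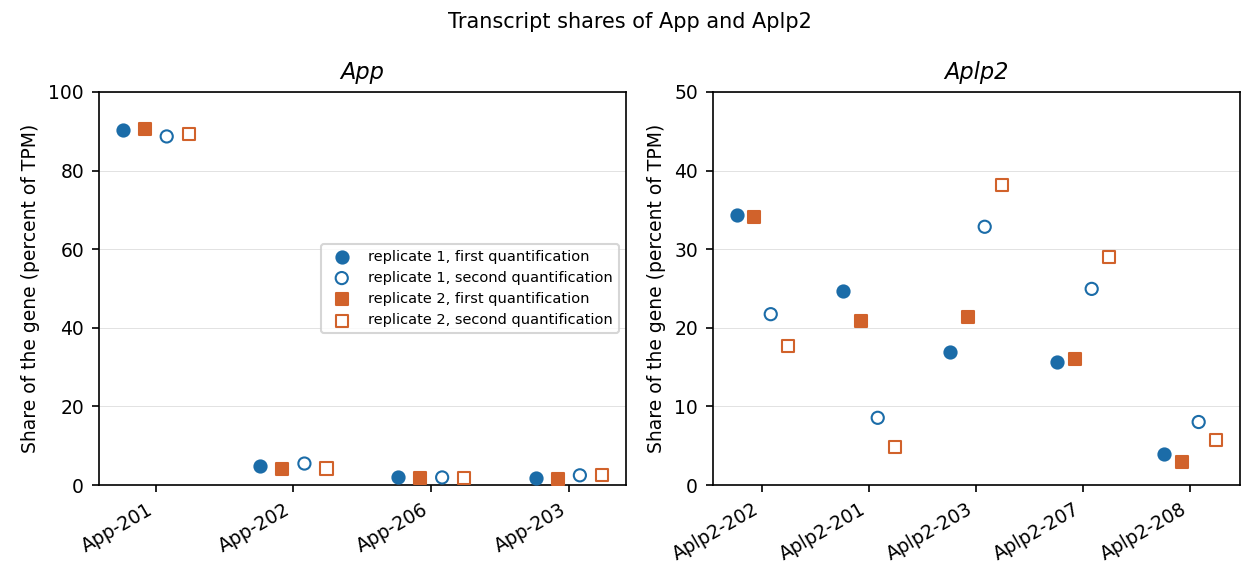
Share of each main transcript in the TPM of App (left, axis to 100%) and Aplp2 (right, axis to 50%), for each animal and each quantification (filled, first; open, second; circles, replicate 1; squares, replicate 2). The App shares differ little between quantifications, with App-201 between 88.7% and 90.5%, whereas in the second quantification Aplp2-203 lies higher and Aplp2-201 lower in both animals.

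Bace1 transcripts were divided mainly between a pair of coding forms. Bace1-201, which codes for 501 residues, took 42.4% and 42.7%, and Bace1-202, which codes for 467 residues, took 39.1% and 35.5%. The second quantification gave them 32.5% and 29.5% for Bace1-201 and 35.8% and 34.7% for Bace1-202, so the leading form changed. Bace1-204, a retained-intron form, took 9.94% and 7.68%, and 20.02% and 15.6% by the second quantification. Bace1-206, an incomplete coding model, took 6.45% and 8.30%, and 11.7% and 20.3%.

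Among the gamma-secretase genes, Psenen and Psen2 had a coding product that was better fixed between quantifications than the single transcripts. Psenen-201 and Psenen-203 code for the same 101 residues and together took 94.4% and 90.4% of Psenen, and all or nearly all of it, 100% and 97.3%, by the second quantification. Singly they were unstable: the second quantification put Psenen-201 at 30.5% in replicate 1 and 94.7% in replicate 2, with Psenen-203 at 69.5% and 2.59%. The first quantification gave Psenen-201 45.3% and 57.2% and Psenen-203 49.1% and 33.3%.

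Psen2 behaved alike. Its 4 transcripts with the same coding sequence of 448 residues took 53.2% and 52.3%, and 41.3% and 51.5% by the second quantification. The first quantification assigned most of this to Psen2-205 (38.5% and 52.3%), with 14.6% and 0% for Psen2-204, and the second all of it to Psen2-204 and none to Psen2-205. These values rested on 249 and 269 expected counts for the gene. Forms without a coding label were a large part of Psen2: together 42.6% and 47.7%, and 54.2% and 48.5% by the second quantification. Psen2-208, a processed transcript, led them with 24.4% and 27.8%, followed by the retained-intron forms Psen2-211 with 10.1% and 6.58% and Psen2-212 with 3.97% and 10.9%.

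The remaining subunit genes had a clear leading form by both quantifications. Ncstn-201, which codes for 708 residues, took 82.6% and 79.8%. Retained-intron forms filled most of the rest, with Ncstn-203 at 8.30% and 10.6%, Ncstn-202 at 6.56% and 3.84%, and Ncstn-205 at 1.76% and 3.30% in the first quantification and 9.32% and 12.4% in the second. Aph1a-202, of 265 residues, took 61.8% and 63.8% and stood above Aph1a-201, of 247 residues, with 24.3% and 23.1%. The retained-intron form Aph1a-204 took 13.9% and 10.8%.

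Aph1b-201, of 257 residues, took 64.1% and 62.2%. Aph1b-202, a coding form of 216 residues whose annotated model is 682 bases long, took 34.4% and 27.0% from only 37.5 and 26.4 counts, and the second quantification put it at 10.8% and 8.197%. Aph1b-203, annotated as a target of nonsense-mediated decay, took 1.52% and 10.8%, and 9.61% and 21.3%. It was the Aph1b form with the widest spread between the animals relative to its mean in the first quantification.

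Of the 9 genes, 3 (Aplp2, Bace1 and Psen2) had a different leading transcript in the first and the second quantification. Over the 11976 genes compared, 19.2% did. Between the animals the leading transcript changed for 1 of 9 genes, Psenen, in each quantification, where 14.0% of all genes changed in the first and 19.6% in the second. In Psen2 and Psenen the exchanged forms share 1 coding sequence, while in Aplp2 and Bace1 they code for different products.

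The levels of the 9 genes differed little between the animals. The ratio of replicate 1 over replicate 2 was taken after scaling by library (TMM), and a gene was called where it reached 2-fold. Of 9 genes 0 were called, and 0.861% of 14169 genes were, counting those whose normalised counts averaged 50 or more. On the counts of the second quantification 0 of 9 were called, against 0.958% of 15039 genes. App had a ratio of 1.01 and Aplp2 of 1.00, with counting intervals (95%, exact binomial, counting error only) that reached from -0.01 to 0.03 and from -0.04 to 0.04 on the log2 scale.

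The widest ratios among the members were 1.14 for Aph1b (log2 0.19, interval 0.03 to 0.35) and 0.881 for Aph1a (log2 -0.18, interval -0.31 to -0.05). The scaffold genes thus lay on opposite sides, and their intervals left out 0, as did that of Aplp1 (log2 -0.03, interval -0.06 to -0.01). The other 6 intervals held 0. Over all genes tested the median difference was 1.08-fold in either direction and 10% of genes differed by more than 1.29-fold, so none of the 9 stood outside the spread of other genes. Aph1b was higher in replicate 1 and Aph1a in replicate 2 under every scaling tried on counts. The direction for Aplp1 depended on the scaling, since its log2 ratio was -0.03 with TMM and 0.04 with spike-ins. The number of members with a ratio above 1 was 6 of 9 with TMM scaling, 7 with spike-in scaling and 1 on log2(TPM + 1). Over all 14169 genes the median log2 ratio moved as well, at 0.00 with TMM, 0.07 with spike-ins and -0.05 from TPM.

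**Figure D4:**
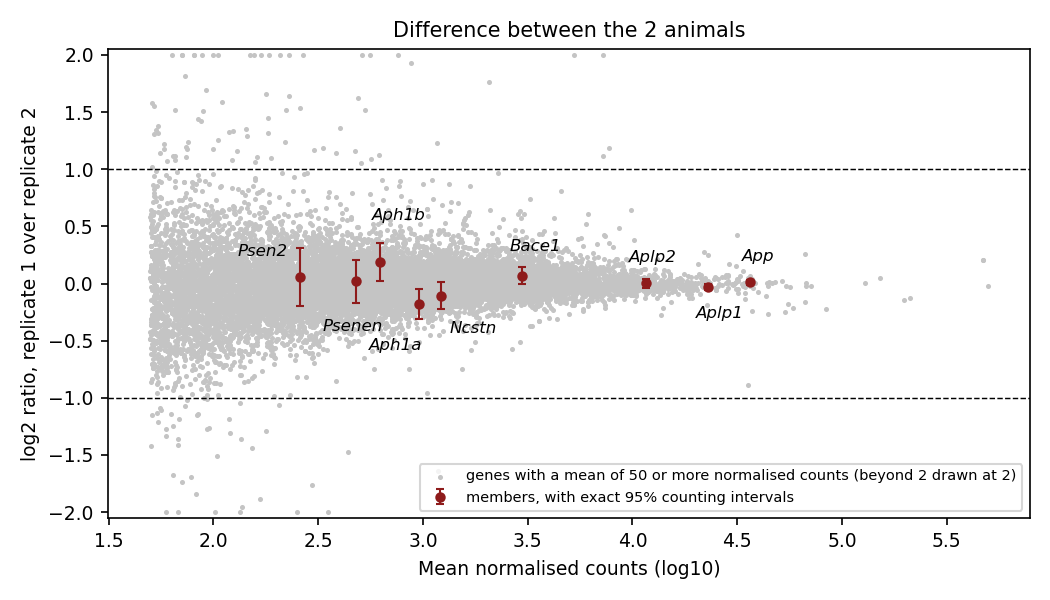
Log2 ratio of replicate 1 over replicate 2 against mean normalised counts (log10); grey points are the 14169 genes counted, red points the 9 members with exact 95% counting intervals, and dashed lines mark 2-fold. All 9 members lie between -0.18 and 0.19.

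The labelled tissue was checked against markers of its cells. Those of excitatory and inhibitory neurons, astrocytes, oligodendrocytes and microglia were all detected. Of these 18, 0 were called at 2-fold between the animals, against 0.861% of all genes tested. The striatal markers Ppp1r1b and Penk stood at 259 and 287 TPM and at 176 and 196 TPM in these samples labelled as cortex, and of the cerebellar markers Gabra6 had 0 counts in both while Cbln1 stood at 4.65 and 4.71 TPM from 160 and 170 counts. Choroid plexus markers differed: all 6 of those with enough counts (of 7) were at least 2-fold higher in replicate 1. The median log2 ratio of these 6 was 3.69. The list summed to 261 and 106 TPM, most of it Enpp2 with 225 and 101 TPM, which had the smallest ratio (log2 1.19). The part of these markers in the levels of the 9 genes was not tested.

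The alpha-secretase genes are the metalloproteases that make the first cut in the pathway without amyloid-beta. Adam10, the main alpha-secretase of neurons, stood at 35.01 and 33.9 TPM (34.5 ± 0.757), close below Bace1, and the ranges of these genes did not overlap. Adam17, the lowest of the 3, stood at 8.13 and 6.66 TPM. The 3 genes summed to 63.2 ± 2.11 TPM. With TMM scaling all 3 lay above 0 in log2 ratio (median 0.08), as did all 5 sorting and endocytic genes of the list below. All 3 Itm2 genes lay below 0. By TPM, Lrp1 (153 and 155), Sort1 and Sorcs1 were higher in replicate 2, while Sorl1 and Picalm were higher in replicate 1. The median over all genes tested was 0.00 with TMM and 0.07 with spike-ins, so sides this close to 0 depend on the scaling. Of the 3 alpha-secretase genes 0 were called at 2-fold. For this list and those below, the share called over all genes tested was 0.861%.

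Among other proteases that can cut App, Ctsb, the gene of lysosomal cathepsin B, was highest at 240 and 245 TPM. Mep1b, which encodes meprin beta, had 0 counts in both libraries, which allows up to 3 counts, or 0.122 and 0.109 CPM. CPM is the count over the library size, scaled to the same total as TPM but not corrected for length. Bace2, the relative of Bace1, was added after its values were seen; it stood at 2.16 and 4.04 TPM from 100 and 147 counts. Of the 6 genes, 5 had enough counts and 0 were called.

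Genes for proteins that bind or transport beta-secretase included the reticulon gene Rtn3, whose product binds Bace1 and restrains it, at 377 and 395 TPM. That was more than any secretase gene. Gga2, a sorting adaptor gene, was lowest at 13.6 and 16.3 TPM. Among factors that modulate or assemble gamma-secretase, Tmed10, a cargo receptor gene of the early secretory pathway, was highest at 77.1 and 81.6 TPM, and Gsap, the gamma-secretase activating protein gene, lowest at 2.32 and 3.61 TPM. None of the 5 and none of the 4 were called at 2-fold.

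Adaptors that bind the cytoplasmic tail of App were led by Apbb1 (Fe65), at 194 and 204 TPM, and the lowest of the 6 was Apba3 at 13.7 and 11.2 TPM. Sorting and endocytic genes ran from Lrp1, an endocytic receptor gene, at 153 and 155 TPM, to Sorcs1 at 18.2 TPM in both animals. The 5 summed to 458 TPM in each library, with 0 called.

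Genes for proteases that degrade amyloid-beta were low beside the precursor. Ece1, which encodes an endothelin-converting enzyme, was highest at 28.0 and 39.4 TPM, and Mme, the neprilysin gene, lowest at 6.65 and 8.12 TPM. The 4 genes summed to 66.1 and 78.7 TPM. In the Itm2 family, Itm2b, which is known to restrain App cleavage, and Itm2c were far higher. They stood at 329 and 344 TPM and at 356 and 378 TPM. Itm2a was the lowest of the family at 18.9 and 25.0 TPM, below Ece1. Over all 8 lists 35 of 36 genes had enough counts. Of these, 0 were called at 2-fold, against 0.861% of all genes tested, a share at which 0 says little about so few genes. The median log2 ratio was -0.01, against 0.00 for all genes tested.

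**Figure D5:**
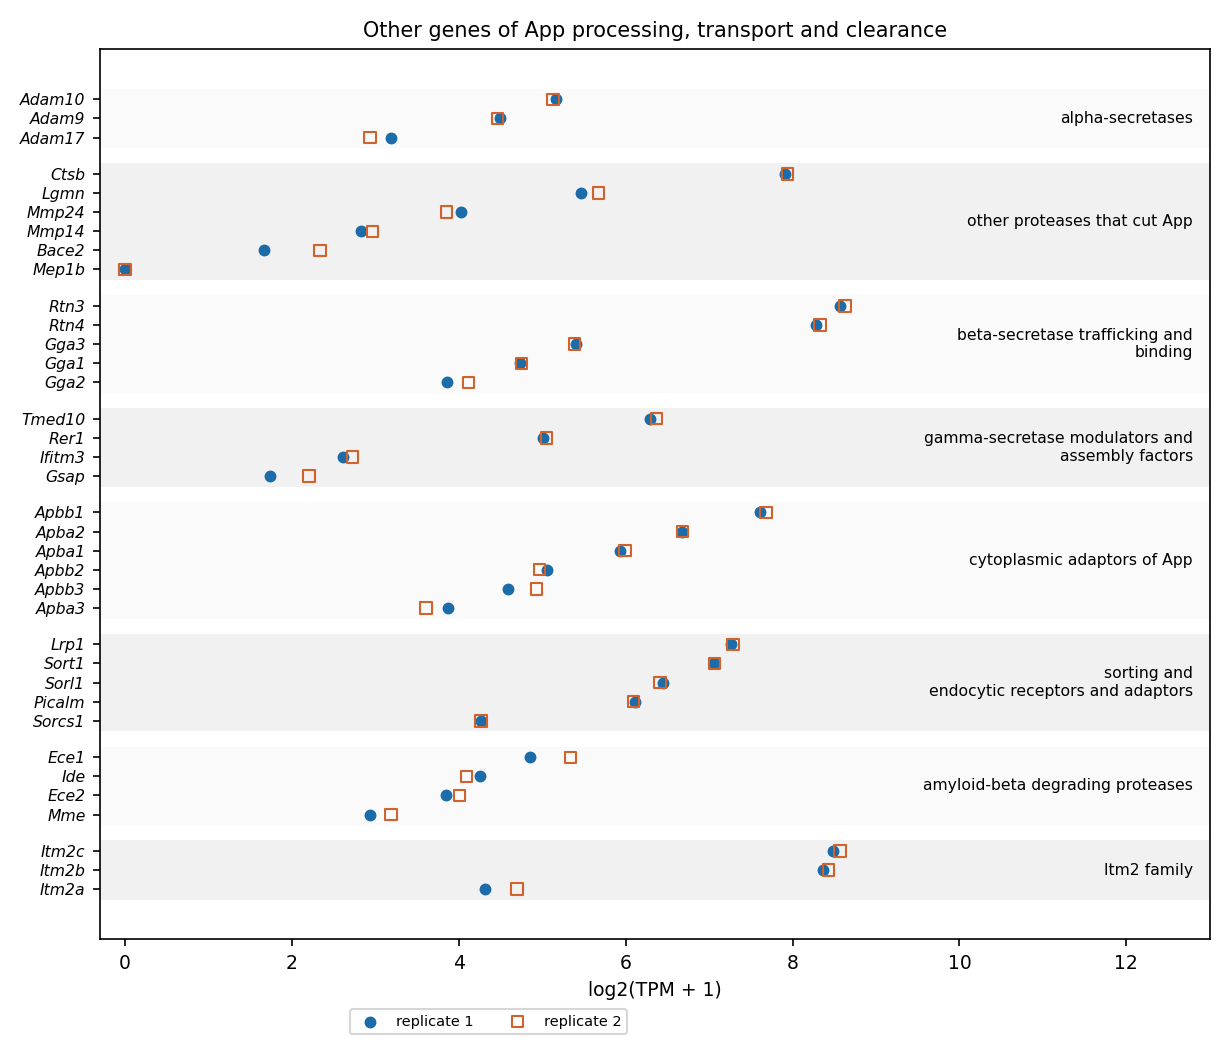
Level of 36 other genes of App processing, transport and clearance as log2(TPM + 1), grouped by list; circles are replicate 1 and squares replicate 2. Rtn3, Itm2c, Itm2b and Rtn4 are the highest, Mep1b is at 0 in both animals, and the animals lie close together in most genes.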

How the data were processed

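The authors deposited, for each of 2 libraries, gene and transcript tables with expected counts, TPM, FPKM and, for transcripts, the percent of the gene held by each, per the file headers. These derive from transcriptome alignments on mm10 with GENCODE M21, per the notes deposited with the files. A further deposited transcript table gives estimated counts and TPM made from the reads, per the same notes. The sources used here do not give the programs, their versions or whether counting used strand, so overlapping genes and near copies are uncertain. Both parental genomes were read against mm10, which is a B6 genome.

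Library sizes leave out 356 ribosomal RNA genes, spike-ins and tRNA entries and were 24688669 and 27440152 expected counts, of 26925514 and 30143684 in all. Protein-coding genes took 49.3% and 50.6% of TPM. For scaling with edgeR 4.0.16 (TMM, prior count 2) expected counts were made whole by rounding. The coefficient of variation between animals was 0.109 for the 18284 genes averaging 10 counts or more. A call needs an average of 50 normalised counts and a log2 ratio of at least 1. The calculation was tested on simulated data. Exon shares use transcripts that hold both neighbouring exons, and exon and peptide positions were found in the GENCODE M21 transcripts. A table of protein sequences was not used here.

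The members, gene lists and settings were chosen with earlier results of these data known. Named were all members, their transcripts with a mean share of 5% or more by either quantification (smaller App forms, Bace2 and the exons that vary were added after their values were seen), the highest and lowest gene of each list, and the 2 genes on either side of App by level. Alternatives were FPKM, scaling over protein-coding genes, the second quantification, counts without length, size factors of DESeq2 1.42.0, scaling by spike-ins, other minimums and prior counts, log2(TPM + 1), and leaving out either animal. Software was scipy 1.17.1, numpy 2.4.6, pandas 2.3.3, Python 3.11.15 and R 4.3.3.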

Additional observations from a re-analysis of the deposited data

How the results depend on the processing

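No paired analysis was possible because there is 1 group. The order of the 9 genes was kept in full with FPKM and with TPM rescaled over protein-coding genes; 5 of 9 kept their place in the second quantification and 7 of 9 with either animal alone. The App to Aplp1 ratio was 1.17 in the second quantification and 1.58 from expected counts without length, where longer App transcripts collect more reads; without each replicate in turn it ranged from 1.09 to 1.10. App to Aplp2 was 2.13, 3.14 and, over protein-coding transcripts only, 3.42 (chosen after seeing the data), and 2.61 to 2.68 without each replicate. App to Bace1 was 15.9 and 12.2, and 16.9 without either replicate. Without length, Psenen to Psen2 was 1.84, Aph1a to Aph1b 1.55 and Ncstn to Psen2 4.70, and Psenen to Ncstn turned from 1.70 to 0.393, since Psenen transcripts are short. Aplp2 over App in transcripts with the Kunitz exon turned to 0.322 in the second quantification without the incomplete model. The App-201 share was 89.0% in the second quantification, 88.3% of expected counts and 91.8% of protein-coding transcripts. The App Kunitz share was 9.69% in the second quantification and 11.1% of counts. The Aplp2 Kunitz share was 68.2% and 49.9%, and over complete transcripts 39.9% and, in the second quantification, 24.8%. With a minimum mean count of 500, 1222 of 7105 genes differed in leading transcript between quantifications, with fewer genes tested. The 122 genes at 2-fold (0.861% of 14169) became 624 with a minimum of 10 (3.43% of 18214) and 2895 with no minimum (5.25% of 55180). On log2(TPM + 1) they became 79 (0.558% of 14169). Of the 9 members 0 were called in any of the 8 settings, which at these shares says little about the members. Depth limits Psen2, Psenen and the minor Aph1b forms, which rest on few counts, and 2 animals give an SD; no test was run on them.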

Other observations

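Several members overlap a gene on the opposite strand, and whether counting used strand is not given in the sources used here. Bace1 overlaps Rnf214, which encodes a RING finger protein, over 975 bases, and the antisense gene Gm16536, over 1589 bases. Gm16536 was listed at 8.82 and 9.65 TPM and Rnf214 at 32.3 and 33.2 TPM. The longest overlap of Bace1, 2079 bases, was with Gm49338, listed at 12.2 TPM in both libraries. Psenen, whose whole level rests on 453 and 502 counts, overlaps U2af1l4 over 327 bases, and U2af1l4 had 362 and 469 counts. Gm49396, which Psenen overlaps over 284 bases, had 149 and 150 counts. Aph1a overlaps Car14 over 521 bases, and Car14 had 188 and 141 counts. Ncstn overlaps Copa, which encodes a coatomer subunit, over 267 bases, and Copa was listed at 64.6 and 68.6 TPM. The 3 antisense genes inside App, Gm49226, Gm49227 and Gm10791, had at most 1 count in either library. The part of these overlaps in the levels was not tested.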
